A study of Mus musculus with 4 samples.

Results

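Cathepsins and legumain are proteases of the lysosome, and 10 of their genes (Ctsa, Ctsb, Ctsc, Ctsd, Ctsh, Ctsk, Ctsl, Ctss, Ctsz and Lgmn) were followed here by gene symbol among the 18091 genes of the array table. To assess the effect of blocking EphB4 and Ephrin-B2 signaling, 2 tumors of PBS-treated and 2 tumors of sEphB4-Alb-treated RT2 mice were hybridised to 1 array each. Mice (6 per group) had been injected intraperitoneally 3 times a week with vehicle or with 10 mg/kg of sEphB4-Alb, the extracellular part of EphB4 fused with albumin, between 10 and 13.5 weeks of age. RT2 mice carry the SV40 large T antigen under the insulin promoter, so that the oncogene is made in beta cells and the tumors are insulinomas. The mice of both groups were Dll4+/+ according to the study's methods and drank sugar water toward the end. Sources differ on the background, given as CD1 and C57/BL6 in the sample labels, as C57/BL6 in the series text and as CD1 for this trial in the study's methods. Which mouse gave which tumor is not in the labels, hence the p-values here reflect the scatter of these tumors, which may be technical. RNA came from whole tumors, where fewer cells of a type and less RNA per cell cannot be told apart.

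Lysosomal proteases are made as inactive precursors, sorted by mannose 6-phosphate receptors, and activated in the lysosome by low pH or by one another. Cystatins hold the cysteine cathepsins in check outside it. Tumor-associated macrophages are a known source of cathepsins in RT2 insulinomas, where these enzymes have been tied to invasion and vessel growth, and in antigen-presenting cells they cut the invariant chain of MHC class II.

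Ctss, the cathepsin that completes the cutting of the invariant chain, had the clearest difference, with a normalized signal 0.71 higher on the log2 scale after sEphB4-Alb (standard error 0.15, n = 2 tumors per group). Of the 10 members it alone had an unadjusted p under 0.05 from limma, where 3.79% of the 10370 genes tested were higher, 2.67% lower and 6.46% in either direction. It did not pass adjustment over these genes (adjusted p = 0.742, limma). Ctsz, Ctsh and Ctsc were likewise higher in both treated tumors than in both controls, by 0.32, 0.16 and 0.21. For the other 6 members the groups overlapped. The count of 4 of 10 higher and 0 of 10 lower by this order stood beside 18.5% and 20.8% of genes tested. Ctsc, among the 4, passed the filter for testing only through the treated arrays. Of the 8 members above background on every array 3 were higher. The mean difference was above 0 in 8 members, beside 47.6% of genes tested, and the median difference was 0.23 for the members and -0.02 for all genes tested.

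**Figure D1:**
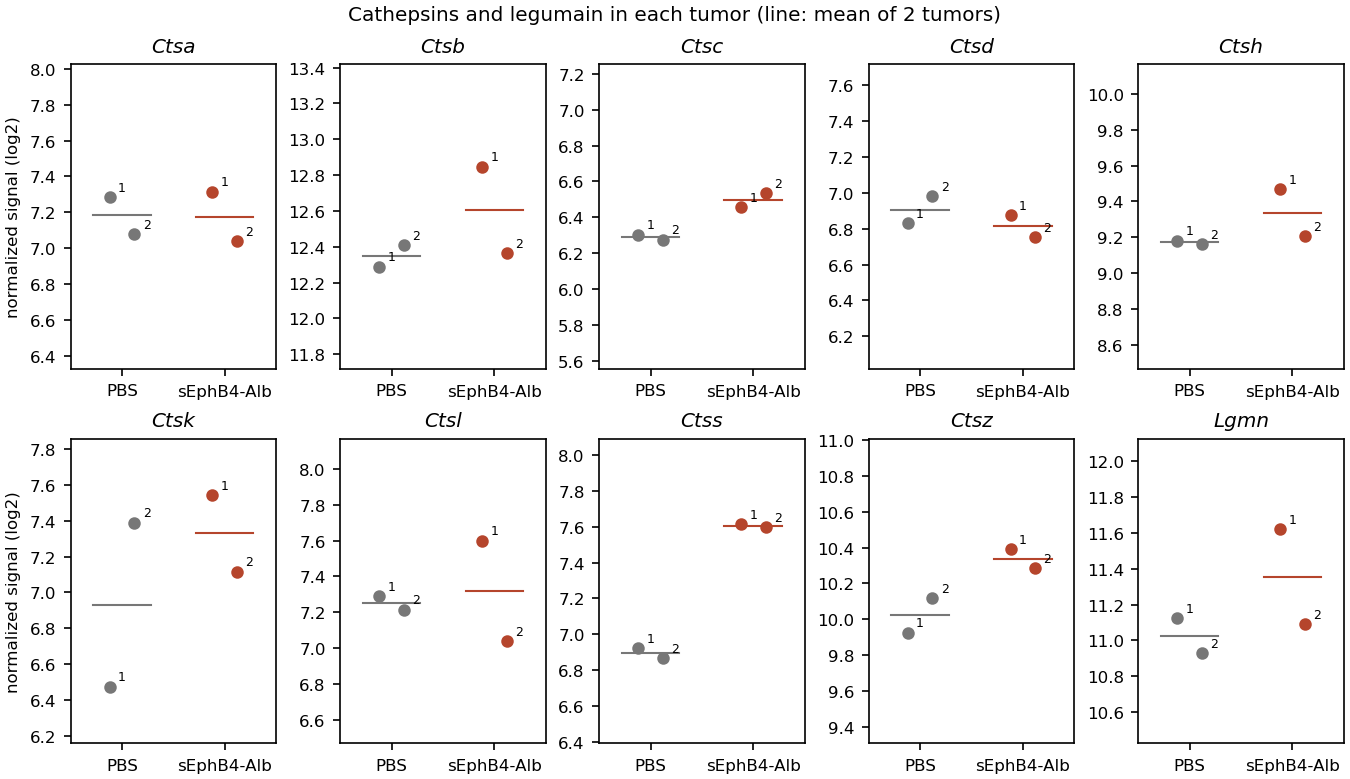
Normalized signal (log2, vertical axis) of each member in the PBS tumors (grey) and the sEphB4-Alb tumors (red), with the tumor number beside each point and a line at the mean of 2 tumors. Ctss shows tight pairs that lie 0.71 apart, and Ctsk shows PBS tumor 1 below the other 3 tumors.

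The brightness of the arrays differed between the groups. Deposited signals of all 10 members were higher in both treated tumors than in both controls, but so were those of 77.3% of genes tested, and the median gene differed by 0.50 (log2) before normalization and by -0.02 after it. Background limits, set on each array from the lower side of its signal distribution, were 132.6 to 145.8 signal units. All 10 members passed the filter for testing, 8 of them above background on every array, Ctsk on 3 and Ctsc only on the treated arrays. PBS tumor 1 correlated with the other arrays at r = 0.945 to 0.953 across genes, and those correlated with each other at r = 0.975 to 0.979. Xist (log2 difference 2.34, below background under PBS) and the Y-linked Ddx3y (-2.31) differed between the groups, so that a difference in sex cannot be told apart from the treatment. The split was not a clean one, since Ddx3y was above background in both treated tumors and Eif2s3y, also Y-linked, only in PBS tumor 1, and the study describes the mice of this trial as male. Of the beta cell markers, Ins1, Ins2, Chga and Pcsk2 were above background in every tumor, Mafa in 1 tumor of each group and Slc2a2 in none.

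Among the cysteine endopeptidases, deposited signals of Ctss were 146.1 and 160.5 under PBS against 281.3 and 321.2 after sEphB4-Alb. Normalized, these were 6.92 and 6.87 against 7.62 and 7.60 (log2). Tumors of a group nearly coincided and the groups lay well apart. The PBS signals of Ctss lay near the background limits of their arrays (134.3 and 132.6), where a change or a gap between tumors can be understated. The 95% confidence interval of the difference was 0.32 to 1.10, with an unadjusted p of 0.00592 from limma. Leaving out any tumor gave 0.68 to 0.74, and the unadjusted p from limma was 0.0619 or 0.057 without treated tumor 1 or 2. An exact two-sided permutation test of 2 tumors against 2 cannot go below p = 0.33, which it reached for Ctss, Ctsz, Ctsh and Ctsc.

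Ctsb, which acts as both endopeptidase and exopeptidase, measured 12.29 and 12.41 under PBS against 12.85 and 12.37 after sEphB4-Alb (log2 normalized signal, as for the values that follow). Only treated tumor 1 was high, and treated tumor 2 fell between the controls. The difference of 0.26 (standard error 0.22, 95% confidence interval -0.31 to 0.83, limma adjusted p = 0.802) shrank to 0.02 without treated tumor 1. Ctsl, an endopeptidase of most cell types, measured 7.29 and 7.21 under PBS against 7.60 and 7.04. Its treated tumors lay on either side of the controls, and the difference of 0.07 (95% confidence interval -0.55 to 0.68) was -0.21 or 0.35 without treated tumor 1 or 2. Ctsk, the collagen-degrading cathepsin of osteoclasts, measured 6.47 and 7.39 under PBS against 7.54 and 7.12. PBS tumor 1, not above background for Ctsk, was the lowest, and the other 3 spread over a range in which treated tumor 2 lay below PBS tumor 2. Its difference of 0.40 (95% confidence interval -0.53 to 1.33) was -0.06 without PBS tumor 1 and 0.86 without PBS tumor 2. Ctsk and Ctss are neighbours on chromosome 3 (RefSeq, GRCm38.p6), yet their profiles were 0.40 apart, as a root mean square distance of mean-centred log2 values over the 4 tumors.

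Among the exopeptidases, Ctsz, a carboxypeptidase also called cathepsin X, measured 9.93 and 10.12 under PBS against 10.39 and 10.28. Treated tumors were higher without overlap, at a difference of 0.32 (standard error 0.17, 95% confidence interval -0.12 to 0.75, limma adjusted p = 0.752). Leaving out each tumor gave 0.22 to 0.41. Ctsh, an aminopeptidase, measured 9.18 and 9.16 under PBS against 9.47 and 9.21. Treated tumor 2 was only slightly above the controls, and the difference of 0.16 (95% confidence interval -0.28 to 0.61) was 0.03 without treated tumor 1. Ctsc, the dipeptidyl peptidase that activates granule serine proteases of immune cells, had deposited signals of 126.6 and 125.1 under PBS, neither above background, against 148.6 and 161.6. Set against the lowest levels above background on the control arrays it was at least 1.003-fold higher, and the measured difference was 0.21 (95% confidence interval -0.19 to 0.60, limma adjusted p = 0.791).

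Lgmn, the asparaginyl endopeptidase legumain, which helps to mature several cathepsins, measured 11.12 and 10.93 under PBS against 11.62 and 11.09. As for Ctsb, treated tumor 1 was high and treated tumor 2 fell between the controls. The difference of 0.33 (standard error 0.24, limma adjusted p = 0.787) was 0.06 or 0.60 without treated tumor 1 or 2. Ctsd, the main aspartic protease of lysosomes, measured 6.83 and 6.98 under PBS against 6.88 and 6.75. Its groups overlapped, and the 95% confidence interval of the difference (-0.09) was -0.51 to 0.33. Deposited signals of Ctsd, 142.8 to 186.3, lay near the background limits of 132.6 to 145.8, where a change can be understated. Ctsa, a serine carboxypeptidase that also protects beta-galactosidase and neuraminidase, measured 7.29 and 7.08 under PBS against 7.31 and 7.04. The groups coincided, at a difference of -0.01 (95% confidence interval -0.49 to 0.48).

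**Figure D2:**
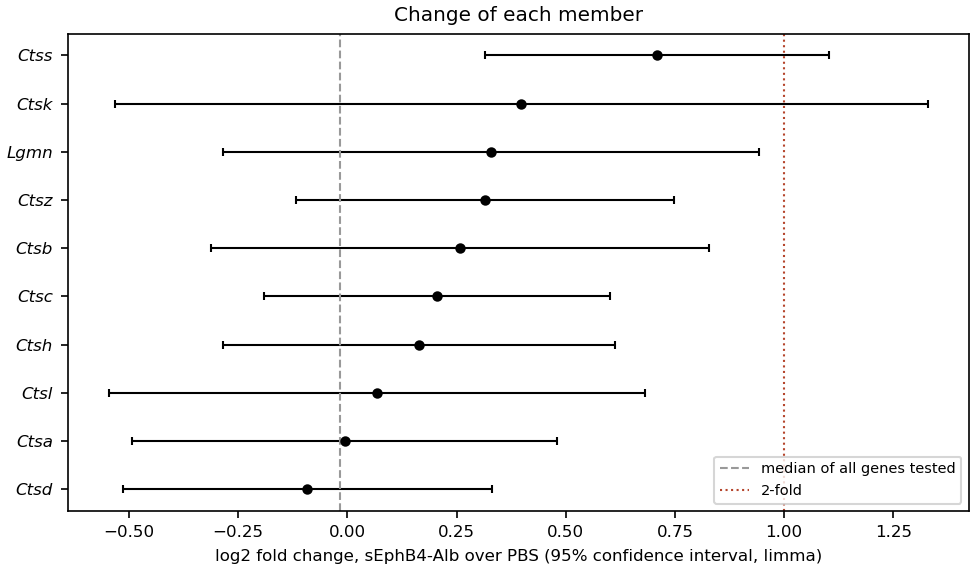
Log2 fold change of each member (sEphB4-Alb over PBS, points) with its 95% confidence interval from limma, beside the median of all genes tested (dashed) and 2-fold (dotted). The interval of Ctss, 0.32 to 1.10, is the only one of the 10 that does not include 0, and the upper ends of Ctsk and Ctss reach past 2-fold.

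The study's thresholds (over 2-fold with p under 0.05) were passed by 0 of the 10 members, beside 0.984% of genes tested that were higher and 0.164% that were lower past them. Adjusted p under 0.05 from limma was reached by 0% of genes tested (0 of 10370, with 670 at an unadjusted p under 0.05), and the members ranged from 0.742 to 0.994. Treated tumor 1 exceeded treated tumor 2 in 9 of the 10 members, Ctsc being the exception, as it did in 50.5% of genes tested. Between controls, tumor 2 exceeded tumor 1 in 4 members and in 49.9% of genes tested. The gap between treated tumors was 0.56 for Ctsl, 0.53 for Lgmn, 0.48 for Ctsb and 0.02 for Ctss, against a median of 0.16 over genes tested.

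Differences of the members moved with the scaling of the arrays. With no scaling between arrays they ran from 0.34 (Ctsd) to 1.28 (Ctss), and with median scaling from 0.01 to 0.95 for the same genes. By order 7 members were then higher under median scaling, beside 37.6% of genes tested. The median gene itself moved by 0.59 and 0.26 under these scalings. Relative to it Ctss stood at 0.69 in both, Lgmn at 0.53, Ctsz and Ctsb at 0.50 and Ctsh at 0.37, while Ctsa (-0.03), Ctsc (-0.16) and Ctsd (-0.25) stood below it. Relative to the median gene after quantile normalization Ctss was at 0.73, Ctsc at 0.22 and Ctsd at -0.07, so that Ctsc changed sides and Ctss and Ctsd kept the highest and lowest place.

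**Figure D3:**
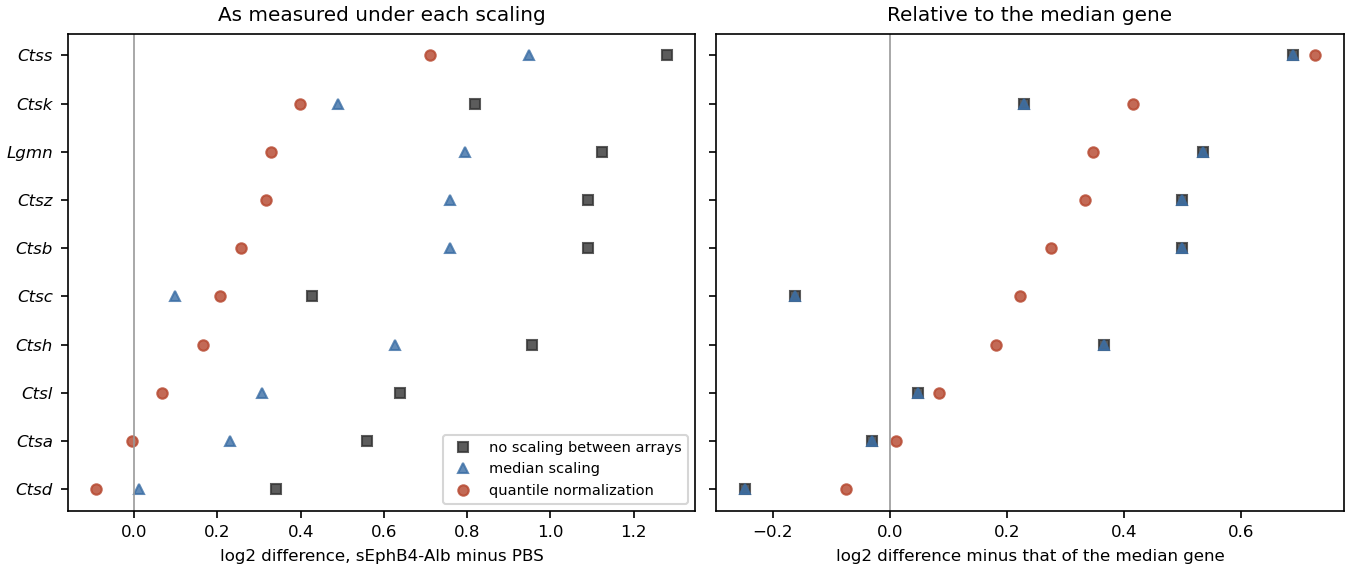
Log2 difference between sEphB4-Alb and PBS tumors for each member without scaling between arrays, after median scaling and after quantile normalization, as measured and minus the difference of the median gene. Ctss has the highest difference in each scaling (0.71, 0.95 and 1.28 as measured), and relative to the median gene Ctsc is at 0.22 or -0.16 depending on the scaling.

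Promoters of 8 of the 10 members were matched in the RefSeq sequences of GRCm38.p6 (10 windows of 300 bases, with 2 each for Ctsa and Lgmn). Both strands were searched for the E-box CACGTG, the core of the CLEAR element bound by TFEB in lysosomal genes, for the whole CLEAR element, for GAGGAAG, a core bound by the macrophage factor PU.1, and for the GC box GGGCGG. An E-box is part of every CLEAR element, and GC boxes can overlap each other. Ctsk (0.40) and Lgmn (0.33) had larger differences than Ctsz (0.32), but their groups overlapped. The 250 bases before the start are shown for Ctss and Ctsz, higher in both treated tumors, and for Ctsd, the lowest member. Matches on either strand are in capitals.
Ctss, chr3:95526536-95526785, plus strand: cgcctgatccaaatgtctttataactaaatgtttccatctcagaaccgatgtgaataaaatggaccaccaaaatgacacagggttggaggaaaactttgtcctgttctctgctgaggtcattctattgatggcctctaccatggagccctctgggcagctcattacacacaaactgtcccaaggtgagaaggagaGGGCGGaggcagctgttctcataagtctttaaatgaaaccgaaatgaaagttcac
Ctsz, chr2:174439040-174439289, minus strand: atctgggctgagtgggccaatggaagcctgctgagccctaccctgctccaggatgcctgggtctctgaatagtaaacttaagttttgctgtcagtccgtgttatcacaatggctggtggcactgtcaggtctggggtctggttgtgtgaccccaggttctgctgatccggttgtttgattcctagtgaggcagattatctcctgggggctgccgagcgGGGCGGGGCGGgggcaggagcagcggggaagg
Ctsd, chr7:142387828-142388077, minus strand: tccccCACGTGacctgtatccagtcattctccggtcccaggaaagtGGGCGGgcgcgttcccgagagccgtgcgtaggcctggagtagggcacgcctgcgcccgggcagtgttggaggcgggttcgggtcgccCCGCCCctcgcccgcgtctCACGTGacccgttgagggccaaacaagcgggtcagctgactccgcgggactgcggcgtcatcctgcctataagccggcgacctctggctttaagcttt
The E-box occurred in windows of Ctsa, Ctsd, Ctsl and Lgmn, which is 4 of 8 members and 4 of their 10 windows beside 7.15% of all 32851 windows, and in Ctsd it lay at -245 and -98 from the start. The PU.1 core occurred in Ctsc, Ctsk and Ctss, 3 of 10 windows beside 13.6% of all, and in Ctss it crossed the start site and is not in the bases shown. GC boxes occurred in Ctsc, Ctsd, Ctss, Ctsz and Lgmn, 5 of 10 windows beside 35.7% of all, at -55 in Ctss. The whole CLEAR element occurred in 0 of 10 windows and in 0.326% of all. These are matches of letters only. Log2 differences of the members with an E-box were -0.01 (Ctsa), -0.09 (Ctsd), 0.07 (Ctsl) and 0.33 (Lgmn).

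Other peptidases were led by Ctse, an aspartic protease of stomach epithelium and immune cells. Deposited signals of Ctse were 136.0 and 320.9 under PBS against 1192 and 1999. Normalized, they were 6.62 and 8.13 against 9.95 and 10.34, and no control reached a treated tumor although the controls differed widely. The difference was 2.77 (standard error 0.53, limma adjusted p = 0.73), or 2.01 and 3.53 without PBS tumor 1 and PBS tumor 2. Of 11 listed peptidases 8 were tested, 3 being higher and 1 lower by order, beside 18.5% and 20.8% of all genes tested. Their median was 0.10. Ctsw, among the 3, passed the filter only through the treated arrays. The lower gene was Pepd, a cytosolic dipeptidase, at -0.47 (standard error 0.17, limma unadjusted p = 0.0456), although its mean deposited signal was 0.19 higher on the log2 scale. By order 8 of 10 duct genes tested were higher and 1 was lower, among them Muc1 at 1.58 and Krt8 at 1.58, the latter at 0.94 without PBS tumor 1. Of 22 acinar genes tested 4 were higher by order, near the 18.5% of all genes tested. Yet the mean difference was above 0 in all 22, beside 47.6% of genes tested, with a median of 1.80. Gp2 stood at 3.02, or 1.12 without PBS tumor 1. The summed normalized signal of the duct list was 1365 and 2384 under PBS against 3295 and 3723, and that of the acinar list 9657 and 40238 against 29987 and 162700, which overlapped. Their part in the value of Ctse was not tested.

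Cystatins and stefins were mostly too dim to test, with 3 tested of the 13 present. None of these 3 separated the groups. Cst3, cystatin C, the main secreted inhibitor of cysteine cathepsins, measured 12.65 and 12.86 under PBS against 13.21 and 12.42. Like Ctsl it was highest in treated tumor 1 and lowest in treated tumor 2, and its difference of 0.06 (standard error 0.30, 95% confidence interval -0.73 to 0.85) was -0.33 or 0.46 without these tumors in turn.

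Of 9 sorting genes tested 0 were higher and 2 lower by order, beside 18.5% and 20.8% of all genes tested, and the median was 0.01. Igf2r, the cation-independent mannose 6-phosphate receptor, measured 8.73 and 9.77 under PBS against 10.03 and 9.75. PBS tumor 1 was the lowest and treated tumor 2 lay just below PBS tumor 2, and the difference of 0.64 (standard error 0.38) was 0.12 without it. Gga3, an adaptor that carries these receptors, stood at -0.38 (standard error 0.17, limma adjusted p = 0.742), although its mean deposited signal was 0.25 higher on the log2 scale. Of 26 tested genes for other lysosomal proteins 10 were higher and 0 lower by order, beside the same shares of all genes, with a median of 0.22. Sgsh, among the 10, passed the filter only through the treated arrays. Laptm5, a lysosomal membrane protein of blood cells, stood at 0.61, or 0.36 without PBS tumor 1.

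Macrophage genes were higher by order in 12 of 19 tested and lower in 0, beside 18.5% and 20.8% of all genes tested. Their median was 0.31. Of the 19, 5 were higher at an unadjusted p under 0.05 from limma, beside 3.79% of genes tested. The mean difference was above 0 in 14, beside 47.6% of genes tested. It was below 0 in Fcgr3 (-0.32), Lyz (-0.09), Tyrobp (-0.04), Lyz2 (-0.02) and Fcgr1 (-0.01). Ms4a7 stood at 0.88 and Cx3cr1, the fractalkine receptor, at 0.85, or 0.66 and 0.47 without PBS tumor 1. Emr1, the gene of a macrophage surface receptor, stood at 0.45, and Cd68, a lysosomal glycoprotein of macrophages, at 0.06 with overlapping groups. The summed normalized signal of the 19 genes was 31821 and 18049 under PBS against 28825 and 22877, of which the lysozyme genes Lyz and Lyz2 made up 23918 in PBS tumor 1. Over all 19 genes the groups overlapped. In a sum chosen after seeing the data, the 17 genes other than Lyz and Lyz2 gave 7904 and 8674 against 13498 and 10651, without overlap. Itgam, Msr1, Ccr2, Fcer1g and Ptprc were not above background on any array. The part of macrophages in the value of Ctss was not tested. Genes of class II presentation (the invariant chain, MHC class II genes and their coactivator Ciita) were higher by order in 5 of 7 tested. The count of 5 higher and 0 lower stood beside 18.5% and 20.8% of all genes tested, and the median of the 7 was 0.55. H2-Eb1 and H2-Oa overlapped, H2-Eb1 measuring 9.32 and 6.67 under PBS against 6.68 and 10.17. H2-Aa, H2-DMb2 and H2-Ob were not above background on any array. Ciita, among the 5, passed the filter only through the treated arrays. Cd74, the invariant chain, measured 10.20 and 11.14 under PBS against 11.91 and 11.43. Its difference of 1.00 (standard error 0.37, limma adjusted p = 0.742) was 0.53 without PBS tumor 1 and 1.48 without PBS tumor 2.

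**Figure D4:**
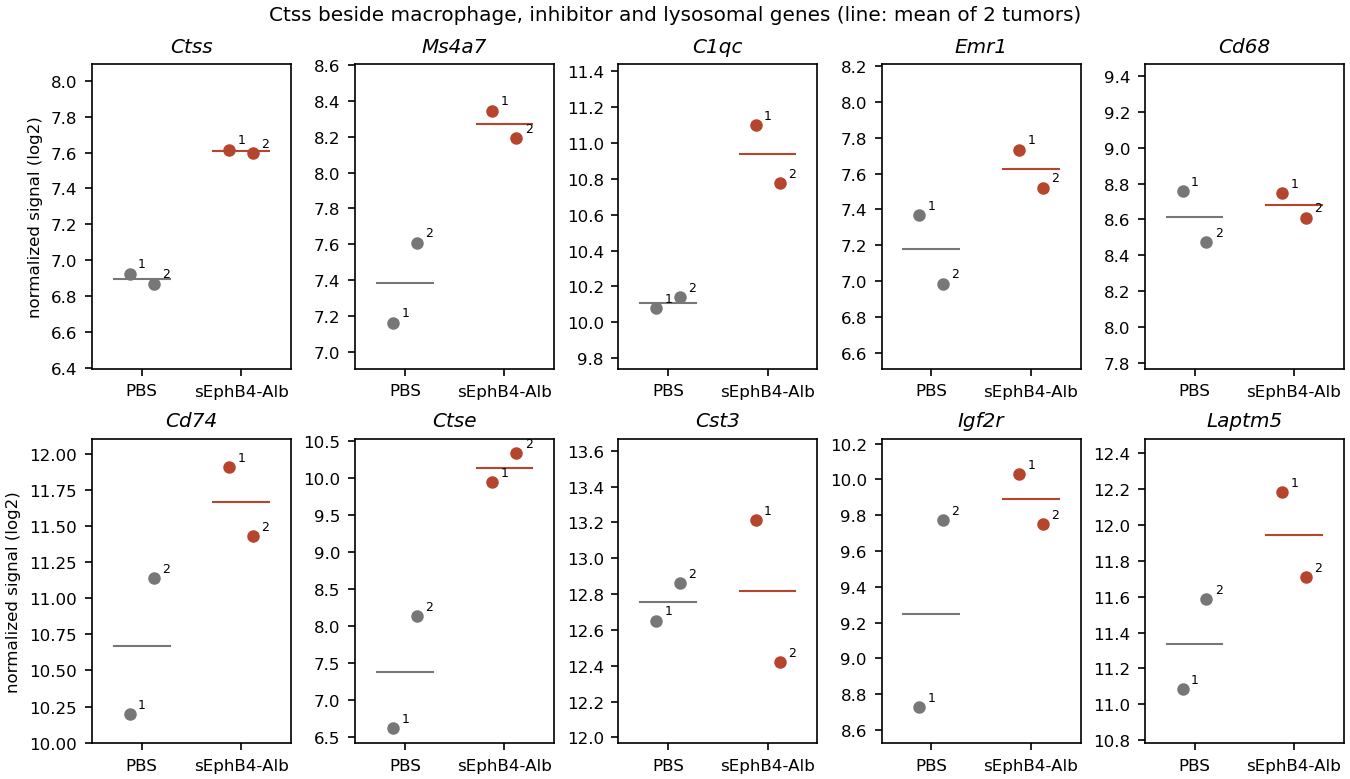
Normalized signal (log2, vertical axis) in the PBS tumors (grey) and the sEphB4-Alb tumors (red) of Ctss and of genes from the lists above, chosen after their values were seen, with a line at the mean of 2 tumors. Ctse (2.77) and Cd74 (1.00) lie higher in both treated tumors, as Ctss does, while Cst3 (0.06) and Igf2r (0.64) overlap.

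Among proteins known to be cut by cathepsins in tumors, Cdh1, E-cadherin, measured 7.08 and 6.87 under PBS against 7.66 and 7.64. Treated tumors were alike and higher, at a difference of 0.67 (standard error 0.16, limma adjusted p = 0.742). Col1a1, a chain of collagen I, stood at 1.01 (standard error 0.15, limma adjusted p = 0.713) and at 0.98 to 1.04 with any tumor left out. In this list 5 of 10 tested were higher and 0 lower by order, beside 18.5% and 20.8% of all genes tested. The median was 0.29. Il4 and Il4ra, the cytokine known to raise cathepsin activity in macrophages of this model and its receptor, were not above background on any array. Csf1r, the receptor of a macrophage growth factor, stood at 0.29 (standard error 0.18), or 0.16 without treated tumor 1, and its ligand Csf1 at 0.25, not above background under PBS and at -0.11 relative to the median gene under median scaling. Irf8, a transcription factor of macrophages, stood at 0.36, or 0.22 without PBS tumor 1. Sfpi1, which encodes PU.1, stood at 0.25, at 0.08 without treated tumor 1 and at -0.056 relative to the median gene under median scaling.

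Genes most like each member were those at the smallest root mean square distance of mean-centred log2 values over the 4 tumors. Nearest to Ctss were Wisp1 and Clec4n (0.02 each), with 36 genes within 0.1. Asah1 (0.01) was nearest to Lgmn, Acp2 (0.02) to Ctsb and Nedd9 (0.03) to Ctsk. With 4 tumors such likeness is common, as 1260 genes lay within 0.1 of Ctsd. Among members the closest pair was Ctsb and Ctsh (0.10), and the member nearest to Ctss was Ctsz (0.22).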

How the data were processed

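The authors deposited linear signal intensity values from Illumina MouseRef-8 v2.0 arrays, 1 row per gene symbol. Medians (135.5 to 168.7) were unequal and the lowest signals were 92.1 to 100.4. The sources used here do not give the array software or scan batches. Another 8 columns whose names match no sample were left out. Signals underwent normexp correction (offset 50), quantile normalization and log2 transformation, then limma 3.58.1 (R 4.3.3), leaving 2 residual degrees of freedom. P-values were adjusted by Benjamini-Hochberg across 10370 genes, those with signals above the background limit (array mode plus 1.645 times the spread below it) on both arrays of either group. The code was tested on simulated data. Members and gene lists were chosen with earlier results of these data known. Named genes were every member, the 2 most changed of each list and the 2 nearest to each member, of which some are given, and others were named after their values were seen. Of 18091 symbols, 14090 matched RefSeq (GRCm38.p6) directly and 3104 by synonym. A bound takes for each control array whichever is larger, the measured value or the dimmest level still above background. Alternatives covered background, scaling, filter, test, pairing and each array left out. The number of arrays limits the precision. Matplotlib 3.10.9 drew the figures. A withheld result is not reported here.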

Additional observations from a re-analysis of the deposited data

How the results depend on the processing

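Members higher by order (4) numbered 7 under median scaling and 10 both without scaling and as ratios of linear deposited signals, and 4 to 9 with a tumor left out. Members lower (0) numbered 0 to 3 with a tumor left out. Leaving a tumor out makes the order a comparison of 1 tumor with 2, which is easier to meet than 2 with 2. The share of all genes meeting it was not counted, so these ranges cannot be set beside the counts of 4 and 0. Members at an unadjusted p under 0.05 (1) numbered 3 under median scaling, 5 without scaling, 2 without moderation and 0 by the exact Mann-Whitney-Wilcoxon test. The share of all genes tested at this p was not counted under these settings. The median gene moved by 0.26 under median scaling and 0.59 without scaling, so these counts are not read as changes of the members. Past the fold and p thresholds (0) there were 4 members without scaling, beside 1128 higher and 3 lower of all genes tested. At a 1.5-fold threshold there was 1, beside 268 and 123. The members' median (0.23) was 0.56 under median scaling, 0.89 without scaling, 0.71 from linear ratios and 0.048 to 0.36 with a tumor left out. Over all genes, 102 higher and 17 lower past both thresholds became 299 and 7 under median scaling, 1128 and 3 without scaling, 67 and 7 without background correction, 32 and 8 without moderation, 0 and 0 by Mann-Whitney-Wilcoxon and 268 and 123 at 1.5-fold. The higher count was 66 for genes above background on all 4 arrays, and with a tumor left out the counts were 84 to 296 higher and 24 to 168 lower. Without moderation 1 gene reached an adjusted p under 0.05. Ctsa turned from -0.01 to 0.23, 0.56 and 0.43 and Ctsd from -0.09 to 0.011, 0.34 and 0.25 under median scaling, no scaling and linear ratios. With a tumor left out Ctsa ranged from -0.14 to 0.13, Ctsk from -0.060 to 0.86 and Ctsl from -0.21 to 0.35. In all, 10 of 138 recomputed member values reversed, and the cause was not tested. The 138 include settings of filter, moderation, test and block, which leave a difference unchanged. Ctss kept its direction in all 14 alternatives, from 0.53 to 1.28. Those that changed only the filter, moderation, test or block could not change its difference. With all tumors kept, its limma adjusted p was no lower than 0.263. A lone tumor was assumed to vary like the other group.

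The replicate block gave 155 higher and 22 lower genes, and for Ctss an unadjusted p of 0.0177 (limma). Tumor numbers were taken from the sample titles, as the sample descriptions give both tumors of a group the same number. No label pairs same-numbered tumors. Their deviations correlated at r = 0.04 across genes, and whether they shared a batch was not tested.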
